A study of Mus musculus with 4 samples.

Results

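The genes described here act in iron storage, uptake, export and sensing and in ferroptosis, and were measured in mouse pancreatic cancer cells: Fth1, Ftl1, Ncoa4, Tfrc, Slc11a2, Slc40a1, Ireb2, Aco1, Acsl4 and Aifm2. They are 10 of the 37074 gene names on the array, and every non-control probe that carries one of these names was read on all 4 arrays, 21 probes in all. The genes were picked by function with earlier results of these arrays known, and Fth1 was singled out by its value in 1 sample, the K5 control. Fth1 therefore gets no test and is left out of the counts of genes below, and the calls for the other 9 genes are a description.

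K5 and K6 are mouse cancer cells of the C57BL/6 strain, labelled as pancreatic cancer tissue and called lines below. Each line gave 1 sample exposed to halofuginone at 100 nM for 24 hours and 1 control sample with the solvent DMSO, so every combination of line and treatment has 1 array. The design text marks the treated member of each comparison with F and the titles with H, and these were taken to be one sample. The labels give no genetic alteration for either line and do not say whether the samples came from separate cultures. Halofuginone blocks prolyl-tRNA synthetase, the enzyme that loads proline onto its tRNA. The design asks how gene expression differs between halofuginone and control within each line.

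Cells take up iron mainly as transferrin bound to the transferrin receptor, move it into the cytosol through the divalent metal transporter, store it in ferritin shells and release it through ferroportin. The iron regulatory proteins bind hairpins in the messages of these genes when iron is scarce, which blocks translation of ferritin and ferroportin and protects the transferrin receptor message from decay. Iron also drives ferroptosis, a form of cell death by peroxidation of membrane lipids, which depends on the supply of polyunsaturated phospholipids and is held back by enzymes that remove lipid peroxides and radicals. The arrays read messenger RNA, so control of translation was not measured.

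Probe levels are given on the log2 scale relative to the 75th percentile of the array's processed signals, so 0 is that percentile. A change is the level after halofuginone minus the level in control. Levels of different probes are not comparable, since probes differ in how strongly they hybridise. Of the 21 probes, 19 were well above background on all 4 arrays, each probe had 1 spot per array, and 2 genes, Fth1 and Ireb2, had only 1 probe. A gene with several probes is read in the test by its brightest probe. Probe positions are those in the files, on mm9; exon and UTR annotation of that build was not used here.

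Each array held 59305 non-control spots, and 53.1% to 54.0% were well above background after halofuginone, against 47.2% to 48.6% in control. All 8 markers of ductal and epithelial cells (keratins 7, 8, 18 and 19, Epcam, Cdh1, Sox9 and Cldn4) were well above background on every array. Summed linear signal of the macrophage markers, in units of the array's 75th percentile, was 9.73 to 13.3 after halofuginone and 27.7 to 30.0 in control. Of the 7 macrophage markers present, 5 were well above background on every array, and the defining markers Adgre1 and Lyz2 on none. Without Cd14 the sum over the other 4 of these was 8.72 to 10.4 after halofuginone and 10.8 to 11.4 in control. The summed acinar markers were 0.50 to 0.78 after halofuginone and 2.41 to 3.69 in control. Cela1 gave the largest acinar signal on every array, and the sum without Cela1 was not taken. The acinar markers Cpa1, Cela2a, Prss2 and Amy2a5 were well above background on no array. Of the tested acinar and endothelial markers Cela1 fell and Kdr rose, while the acinar marker Ctrb1 did not pass the threshold. In bulk samples fewer cells of a type and less RNA per cell cannot be told apart.

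Slc11a2 was higher in both lines after halofuginone, while the transferrin receptor Tfrc, ferroportin Slc40a1, the ferritin receptor Ncoa4, Acsl4 and Aifm2 were lower on both halofuginone arrays than on both control arrays. The ferritin light chain Ftl1 and both iron regulatory proteins, Aco1 and Ireb2, had overlapping groups and changes of opposite sign in the lines. Of the 9 genes other than Fth1, read from a fit over 19093 genes, 1 passed the threshold as higher (Slc11a2) and 0 as lower with limma, beside 3.88% higher and 5.08% lower among all tested genes (8.96% in either direction). At an unadjusted p under 0.05 the counts were 1 higher and 4 lower (Tfrc, Slc40a1, Aifm2 and Acsl4), and 34.1% of all tested genes were past it in either direction.

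Halofuginone and control arrays did not overlap for 6 of the 9 genes, 1 higher and 5 lower. Among all tested genes 30.0% lay above both controls, 28.6% below and 58.6% did not overlap, so the count of 6 is close to the background. Changes had opposite signs in K5 and K6 for 3 of the 9, against 23.3% of all tested genes. The median change was -0.61 over the 9 genes and 0.01 over all tested genes. A change of 2-fold or more upward was seen for 1 gene in K5 (14.1% of all tested genes) and 1 in K6 (16.4%), and one of 2-fold or more downward for 2 in K5 (14.9%) and 0 in K6 (16.4%), values that carry no test.

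**Figure D1:**
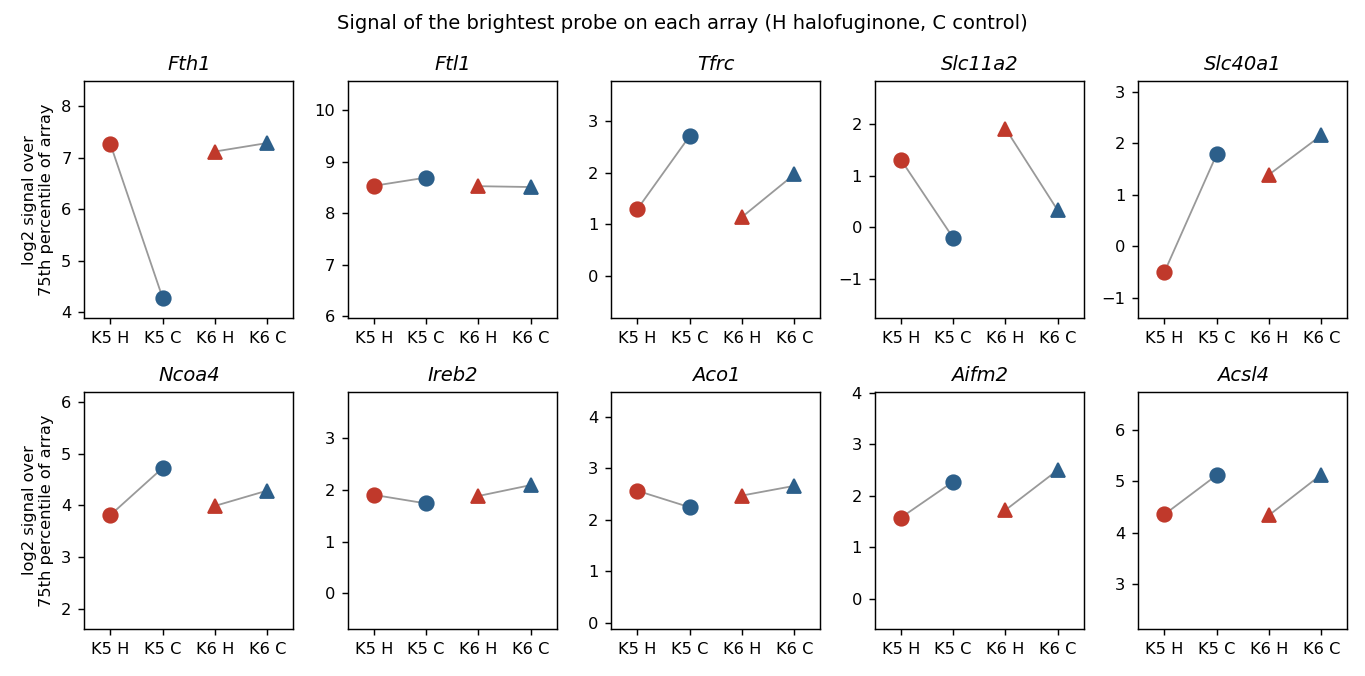
Level of each of the 10 genes on each array (log2 of processed signal minus the array's 75th percentile, vertical axis), read by the brightest probe, with halofuginone left of control and 1 point per array. The K5 control point of Fth1, at 4.28, lies apart from its other 3 points at 7.12 to 7.28.

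The first of the storage genes, Fth1, encodes the ferritin heavy chain, the subunit with the ferroxidase activity that oxidises iron for storage. Its probe lies on chr19:10059485-10059544, plus strand. The first 30 of its 60 bases are shown because a single probe carries the gene's whole reading (lower case throughout, 5′ to 3′).
Fth1 probe: atgtcaggctgccttcatcttttctataag

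Fth1 read 7.26 in K5 and 7.12 in K6 after halofuginone, against 4.28 in control K5 and 7.28 in control K6. The processed signal was 135734 and 114933 with halofuginone in K5 and K6, and 13408 and 138524 in control K5 and K6. The other 3 arrays lie together and the control K5 array lies low. The change was 2.99 in K5, which is 7.93-fold, and -0.16 in K6. The whole K5 difference rests on 1 spot on 1 array, and no other probe of the gene was present to read it again.

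The scanner's record of that spot differed in some respects from the other arrays. The spread of pixels within the spot was 17.6% of its mean on the control K5 array (42 pixels), against 7.99% for halofuginone K5, 9.87% for halofuginone K6 and 6.50% for control K6. The spot carried no feature outlier flag on any array, and a background outlier flag on the control K5 array alone. Such a background flag was set on 2.94% of that array's spots. The spot's difference from the median of the other 3 arrays was -2.99, and 0.615% of the 26843 measurable spots on the array (165 spots) were lower still.

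Spots beside Fth1 in the same array column were low on the control K5 array as well. Fth1 sits at row 365, column 94. From 4 rows before it to 3 rows after it, 6 other spots of that column were measurable for the control K5 array, that is, well above background on the other 3 arrays, and all 6 lay more than 1 below the median of the other arrays, at -3.15 to -1.53 with a median of -2.12. Over the whole array 13.3% of measurable spots were that low. The window was chosen after the values were seen.

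The 6 spots belong to unrelated sequences. Chuk, 1 row before Fth1, differed by -3.01 and Wdr59, 2 rows after it, by -3.15. Pcnxl4 differed by -2.08, Ccin by -1.93, Zfp709 by -1.53 and a probe for an unnamed transcript by -2.15. These deviations were seen on control K5 and not as a column on the other arrays: of 5 measurable spots there, 0 were below -1 for halofuginone K5, 0 for halofuginone K6 and 1 for control K6. In the adjoining columns 1 of 3 spots and 0 of 3 spots were below -1 on control K5. That 1 spot, at -4.81, was lower than Fth1 and every spot of its column. Another spot outside the column, 1 row before Fth1 and 3 columns to its side, differed by -4.55. Low values were thus not confined to the column.

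Further along the column the spots 8 and 9 rows after Fth1 were not low, at 1.55 and -0.02. No spot of the column was measurable from 4 to 7 rows after Fth1, or from 10 to 5 rows before it. Where the low values begin and end is therefore not known. Chuk has another probe elsewhere on the array, whose control K5 difference was -2.09, also low. The part of the column in the Fth1 value was not tested. Without K5, the Fth1 change is the K6 value, -0.16.

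**Figure D2:**
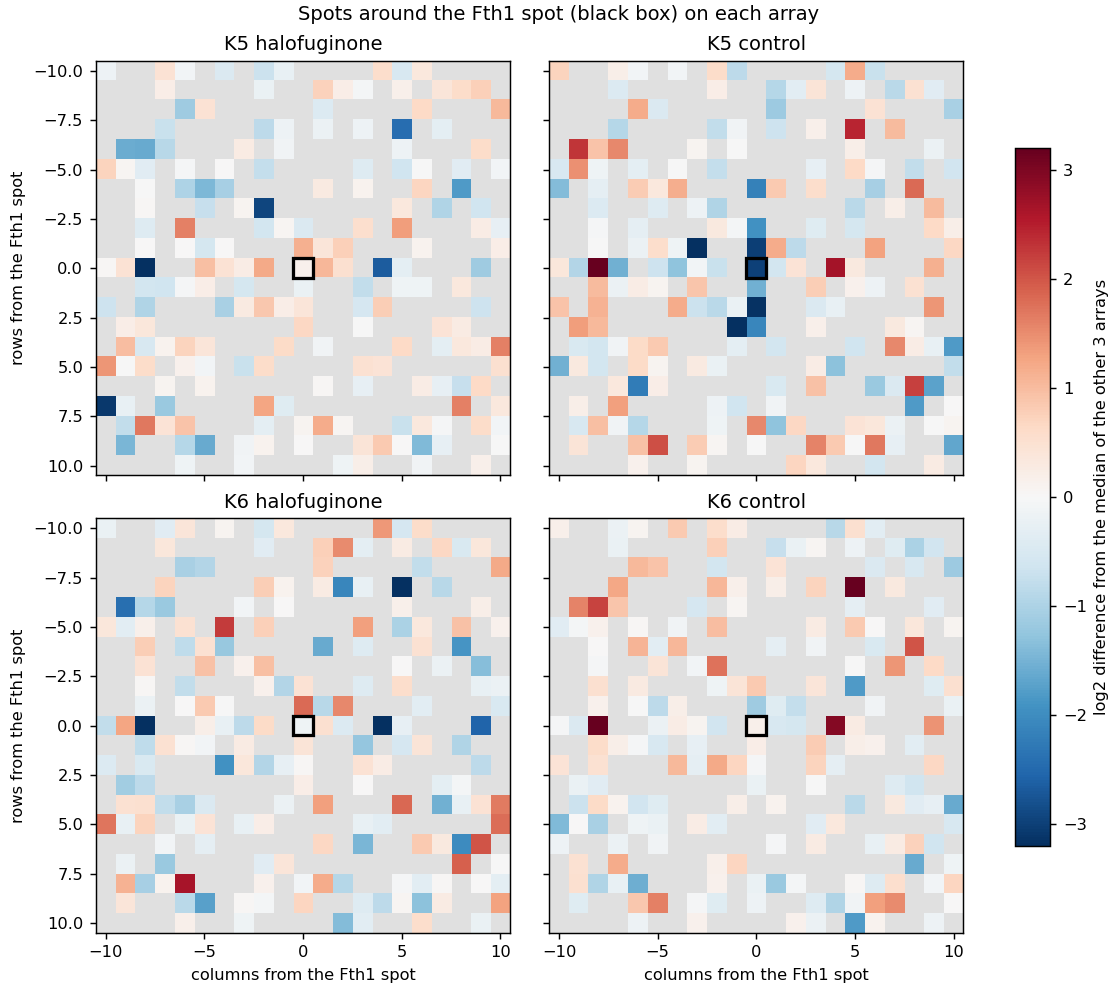
Spots within 10 rows and columns of the Fth1 spot (black box) on the 4 arrays, coloured by the log2 difference of each spot from the median of the other 3 arrays; grey squares were not measurable. On the control K5 array the measurable squares in the Fth1 column from 4 rows before to 3 rows after it are all blue, at -3.15 to -1.53 beside Fth1 at -2.99, and the square 3 rows before it is grey.

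The 5 tested genes below had patterns closest to that of Fth1 by Euclidean distance over the 4 arrays, after centring each gene on its mean. They were BC021782 (distance 0.33), a transcript without a gene name (0.34), Wdr59 (0.41), AK029233 (0.41) and Dep1 (0.43). On the control K5 array BC021782, AK029233 and Dep1 read -6.48, -6.29 and -6.41, under the -4.17 of the dimmest probe well above background there, so their distances have no exact meaning. Wdr59 is the gene whose spot lies 2 rows from Fth1 in the same column, and the other 4 are not read by a spot of that column. The Wdr59 change was 3.52 in K5 and 0.03 in K6.

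Ftl1 encodes the ferritin light chain, the subunit that helps form the mineral core. Its brightest probe (chr7:52713318-52713377, minus strand) read 8.53 in K5 and 8.52 in K6 after halofuginone, against 8.69 in control K5 and 8.51 in control K6. The groups overlapped, and the change of -0.07 (SE 0.26, 2 lines) had a limma adjusted p = 0.87. The other probe read 6.64 and 6.59 for K5 and K6 with halofuginone, and 6.66 and 6.42 in control. No Ftl1 reading lay apart on the control K5 array as that of Fth1 did.

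Ncoa4 encodes the receptor that carries ferritin to autophagosomes for breakdown. It read 3.81 and 3.99 in halofuginone K5 and K6, against 4.73 and 4.29 in control K5 and K6 (chr14:32992281-32992340, plus strand). Both treated arrays lay below both controls, with changes of -0.92 in K5 and -0.30 in K6. The mean change of -0.61 (SE 0.30) had a limma adjusted p = 0.24. Its other probe gave -0.96 in K5 and -0.21 in K6, again with the larger difference in K5.

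Among the genes of iron uptake, Tfrc encodes the transferrin receptor. On chr16:32632255-32632314, plus strand, it read 1.30 in K5 and 1.15 in K6 after halofuginone, against 2.72 in control K5 and 1.97 in control K6. Both treated values lay below both control values, with changes of -1.42 and -0.83. The mean change was -1.12 (SE 0.30), or 2.18-fold lower, with a limma adjusted p = 0.090 that missed the threshold. The upstream probe read 0.03 and -0.57 in the treated lines against 1.50 and 0.54 in their controls, changes of -1.47 in K5 and -1.10 in K6.

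Slc11a2 encodes the divalent metal transporter, which moves ferrous iron across the membrane of endosomes and of gut cells. Its transcripts differ in their 3′ ends, and the files place 3 of its probes under transcript variant 2 and 1 under transcript variant 1. The upstream probe lies away from the 3′ end, so its place under variant 2 does not show which variant it reads. The first 30 of the 60 bases of each probe are shown because the variants read differently (lower case throughout, 5′ to 3′; mm9, minus strand).
Variant 2, chr15:100219212-100219271: gtatcgatatgtatttatgtgaacccaaac
Variant 2, chr15:100218333-100218392: tgctttaatcccaaccagaaataatcatcc
Variant 1, chr15:100223347-100223406: tgttccctattcacttgattgtcactgaaa
Upstream, filed under variant 2, chr15:100240516-100240575: gagactctgaggagcccttcaccacctact

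The brightest variant 2 probe read 1.32 in K5 and 1.92 in K6 after halofuginone, against -0.20 in control K5 and 0.33 in control K6. Both treated arrays were above both controls, and the lines changed alike, by 1.52 and 1.59. Slc11a2 rose by 1.55 (SE 0.26, 2 lines; 2.93-fold) with a limma adjusted p = 0.048. The call was lost without the line as a block (adjusted p = 0.13), without the filter on dim probes (0.067), with scaling on probes detected on all 4 arrays (0.067) and with the mean over its probes, which gave a change of 0.85 (0.14).

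The second variant 2 probe read -0.47 and 0.39 in treated K5 and K6, against -1.52 and -0.55 in control. Its changes were 1.05 and 0.93. The upstream probe, not well above background on the control K5 array, read -3.48 and -3.02 after halofuginone and -4.62 and -3.80 in control, changes of 1.13 and 0.78. Both 3′ probes of variant 2 and the upstream probe were higher in both lines.

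The variant 1 probe did not follow them in K6. It read -1.77 in K5 and -2.35 in K6 after halofuginone, against -2.48 in control K5 and -1.42 in control K6. Its change was 0.71 in K5 and -0.93 in K6, with overlapping groups. The difference between the probes of the 2 variants was not tested.

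Slc40a1 encodes ferroportin, the exporter that releases iron from cells. It read -0.50 in K5 and 1.39 in K6 after halofuginone, against 1.78 in control K5 and 2.15 in control K6 (chr1:45965255-45965314, minus strand). The treated K5 array was the lowest, and the change was -2.29 in K5 and -0.76 in K6. The mean change of -1.52 (SE 0.46) had a limma adjusted p = 0.11. A second probe failed to clear background in all 4 samples. Macrophages, which recycle iron, express ferroportin strongly, and 2 of the 5 tested macrophage markers, Cd14 and Cd68, fell after halofuginone. Ptprc read 1.90 and 1.48 in treated K5 and K6 against 0.86 and 1.30 in control, and Itgam 2.51 and 2.32 against 2.75 and 2.66. Csf1r, which did not pass the threshold, read -0.51 and -0.61 against 0.58 and 0.60. Adgre1 and Lyz2 were well above background on no array. The part of macrophages in the Slc40a1 change was not tested.

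The sensors of iron come next. Ireb2 encodes iron regulatory protein 2, which is degraded when iron is plentiful. It read 1.91 in halofuginone K5 and 1.88 in halofuginone K6, against 1.74 and 2.10 in the controls (chr9:54759984-54760043, plus strand), with a background outlier flag on all 4 arrays. The groups overlapped, and the change of -0.02 (SE 0.27) had a limma adjusted p = 0.96.

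Aco1 encodes iron regulatory protein 1, which works as cytosolic aconitase while it holds an iron-sulfur cluster. Its brightest probe (chr4:40145117-40145176, plus strand) read 2.56 and 2.47 in treated K5 and K6, against 2.25 and 2.66 in control. The treated values lay between the control values, and the change of 0.07 (SE 0.29) had a limma adjusted p = 0.89. The dimmer probe had wider values, -2.09 and -2.75 after halofuginone against -2.87 and -2.07 in control. Both probes were higher in K5 and lower in K6.

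The remaining genes belong to ferroptosis. Acsl4 encodes the ligase that activates arachidonic acid for membrane phospholipids and so favours ferroptosis. Its brightest probe (chrX:138752602-138752661, minus strand) read 4.36 and 4.34 in treated K5 and K6, against 5.12 and 5.13 in control K5 and K6. Control and treated arrays lay apart and each group was tight. The change was -0.76 in K5 and -0.79 in K6, a mean of -0.78 (SE 0.26) with a limma adjusted p = 0.13.

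The other Acsl4 probes, 2 in number, overlap by 44 bases and differ there at 1 base. They are shown in full because they read the same stretch (chrX:138755214-138755273 and chrX:138755198-138755257, minus strand, 5′ to 3′); the capital marks the differing base. Counted from 1 at the 5′ end of the downstream probe, the difference is A38T.
Upstream probe: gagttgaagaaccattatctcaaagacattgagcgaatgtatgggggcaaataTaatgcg
Downstream probe: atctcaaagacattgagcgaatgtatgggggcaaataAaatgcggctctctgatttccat

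The downstream probe read 2.14 in K5 and 1.55 in K6 after halofuginone, against 3.67 in control K5 and 3.05 in control K6. Its changes were -1.54 and -1.50. The upstream probe gave -1.48 and -1.41 in K5 and K6. These readings share sequence and are not independent, and both changes were larger than that of the brightest probe.

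Aifm2 encodes FSP1, an oxidoreductase that regenerates reduced ubiquinone and so holds back ferroptosis. It read 1.57 and 1.72 in treated K5 and K6, against 2.27 and 2.50 in control (chr10:61201320-61201379, plus strand). Both treated values lay below both controls, with changes of -0.70 and -0.78. The mean change was -0.74 (SE 0.26, limma adjusted p = 0.14). Its dimmer probe gave -0.57 in K5 and -0.10 in K6. The brighter probe carried a background outlier flag on 1 array. With spots of any outlier flag left out, the gene was read by the dimmer probe, at -0.34 (limma adjusted p = 0.45).

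**Figure D3:**
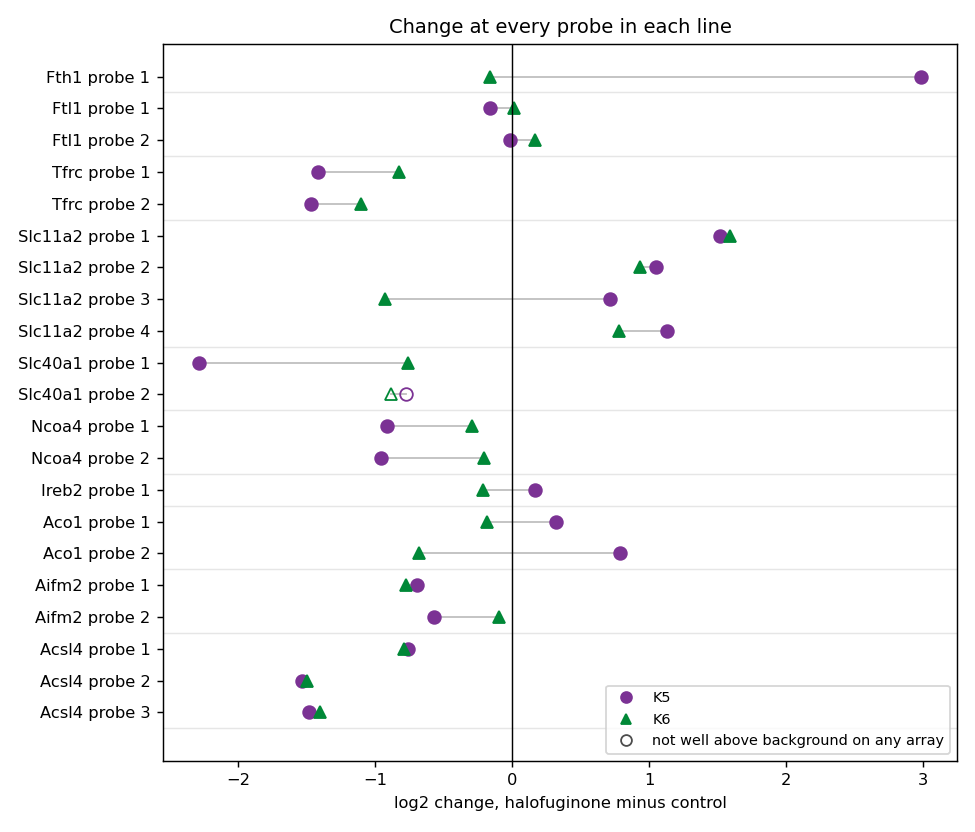
Log2 change after halofuginone (halofuginone minus control, horizontal axis) of every probe of the 10 genes in K5 and K6, 1 point per probe and line. The Fth1 point of K5 stands at 2.99 beside K6 at -0.16, and Slc11a2 probes 1, 2 and 4, filed under variant 2, lie right of 0 in both lines.

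K6 and K5 were also compared with each other, over both treatments, in the same fit. Of the 9 genes other than Fth1, 0 passed the threshold with limma, beside 0.173% of all tested genes. The estimate was 1.13 for Slc40a1 (SE 0.46, limma adjusted p = 0.36), 0.57 for Slc11a2 (SE 0.26, adjusted p = 0.39) and -0.45 for Tfrc (SE 0.30, adjusted p = 0.52). The other 6 lay between -0.13 and 0.19. For Fth1 the difference of 1.43 holds the low control K5 spot.

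Other genes of iron handling, a list of 53 that holds none of the 10, were read in the same way. Of the 42 tested, 1 rose, 7 fell and 34 did not pass, which is 19.0% called beside 8.96% of all tested genes. Their median change was -0.77, against 0.01 over all tested genes. The list was chosen with earlier results of these arrays known, so these values are a description and not a test of excess over all genes. In both lines 24 were lower and 10 higher, but the matching shares of all tested genes were not counted. Changes had opposite signs in the lines for 23.3% of all tested genes.

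Genes for iron carried in plasma were among those that fell. Cp, the ferroxidase ceruloplasmin that loads iron onto transferrin, read 0.28 in K5 and -2.39 in K6 after halofuginone, against 4.30 and 3.50 in control, and fell by 4.96 (SE 0.54, limma adjusted p = 0.038). Trf, transferrin itself, read 5.19 and 2.83 in treated K5 and K6 against 7.41 and 6.04 in control, and fell by 2.72 (SE 0.36, adjusted p = 0.042). Every treated array lay below every control array for both genes.

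Tfr2, the second transferrin receptor, fell by 3.56 (SE 0.49), with -0.15 and -3.28 in treated K5 and K6 against 2.56 and 1.11 in control. Hfe, its partner in iron sensing, fell by 2.92 (SE 0.33) and was well above background on 1 of 2 halofuginone arrays, so its size is not exact, and normexp background correction gave -1.65. The heme-complex receptor Lrp1 fell by 2.17 (SE 0.26), the metal importer Slc39a8 fell by 2.16 (SE 0.29; -1.46 with normexp) and the heme binder Hpx fell by 1.61 (SE 0.26), all at limma adjusted p of 0.039 to 0.048. Steap1, of the metalloreductase family, rose by 2.17 (SE 0.27, adjusted p = 0.040), with 5.43 and 5.53 in treated K5 and K6 against 3.44 and 3.18 in control. Pcbp1, an iron chaperone, Fbxl5, which degrades Ireb2, and the heme oxygenase Hmox1 did not pass, at 0.66, -0.14 and 0.20.

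A list of 52 other ferroptosis genes had 45 tested, of which 5 rose, 5 fell and 35 did not pass, or 22.2% called beside 8.96% of all tested genes. The median change was -0.20, against 0.01 over all tested genes. This list too was chosen with earlier results of these arrays known, so the share called is a description only. Chac1, which breaks down glutathione, read 4.75 and 5.47 in treated K5 and K6 against 1.39 and 0.95 in control, and rose by 3.94 (SE 0.39, limma adjusted p = 0.037). Ptgs2, a prostaglandin synthase induced in ferroptotic cells, rose by 4.19 (SE 0.46), Cth, of cysteine synthesis, by 2.89 (SE 0.35) and the reductase Cyb5r1 by 2.58 (SE 0.27). Slc3a2, the heavy chain of the cystine importer, rose by 2.14 (SE 0.26), while 1 of its 2 other passing probes gave -0.25 and the mean over probes 1.42 (adjusted p = 0.061).

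Cbs, also of cysteine synthesis, read -1.58 and -2.15 in treated K5 and K6 against 1.01 and 1.40 in control, and fell by 3.07 (SE 0.35, limma adjusted p = 0.039). The fatty acid desaturases Scd2 and Scd1 had changes of -2.14 (SE 0.35) and -2.01 (SE 0.26), Pts, of tetrahydrobiopterin synthesis, -1.62 (SE 0.26) and the fatty acid ligase Acsl3 -1.57 (SE 0.26), all past the threshold. The Scd2 call was lost with quantile normalisation (adjusted p = 0.062), the authors' values (0.061) and the mean over probes (0.050), and held in 5 of 11 settings. Gpx4, the peroxidase that reduces lipid peroxides, read 5.63 and 5.80 after halofuginone and 5.76 and 5.79 in control, a change of -0.06 (SE 0.26, adjusted p = 0.89). The cystine importer Slc7a11, at 1.52 (adjusted p = 0.054), the lysophospholipid acyltransferase Lpcat3, at -1.38 (0.062), and Nfe2l2, at 0.34 (0.42), did not pass. The other passing probe of Nfe2l2 gave 2.81. Without the line as a block limma called 0 genes in either list, while at an unadjusted p under 0.05 it had 3 higher and 13 lower in the iron handling list and 7 higher and 8 lower in the ferroptosis list, beside 23.5% of all tested genes. The 0 counts also held without the filter on dim probes and with scaling on probes detected on all 4 arrays.

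**Figure D4:**
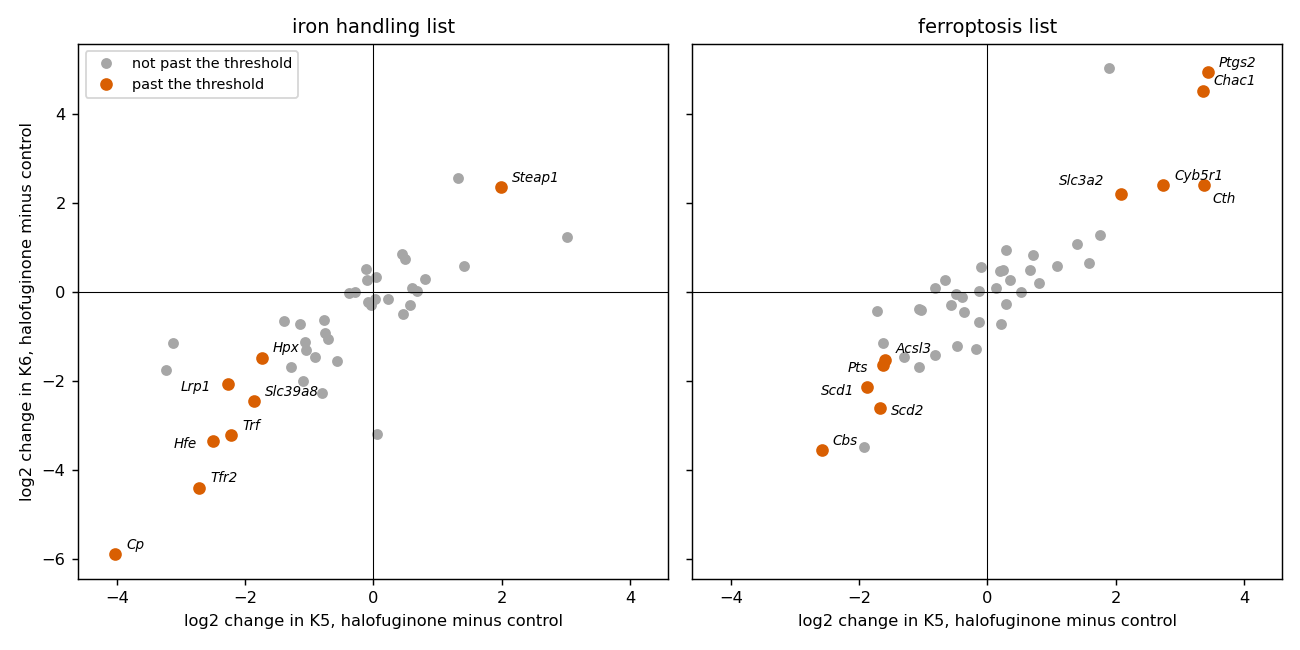
Log2 change after halofuginone in K5 (horizontal) and K6 (vertical) for the tested genes of the iron handling list (42 genes, left) and of the ferroptosis list (45 genes, right), 1 point per gene. Orange points passed the threshold: 1 higher and 7 lower on the left, 5 higher and 5 lower on the right.

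Promoter windows around the gene start were present for 8 of the 10 genes in RefSeq's table for GRCm38.p6, 12 windows in all. The antioxidant response element, searched as TGACNNNGC on both strands, was found in 1 window, that of Ncoa4, and in 12.4% of all 32851 windows. The loop of the iron responsive element, searched as CAGTGN on the gene's strand, was found in the windows of Ftl1 and Aifm2 and in 34.6% of all windows. These matches begin at -243 and -30 from the annotated gene start, upstream of it, so they are not in the annotated message. The element bound by C/EBP and ATF factors, searched as TGATGNAAN on both strands, was found in none of the 12 windows and in 3.95% of all. No match overlapped another, since they lie in different genes, and a match is a description of the sequence only.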

How the data were processed

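The 4 arrays, of 1 colour, were read, 1 for each line and treatment, all on 1 slide, so slide and scan could not be tested as batches. The intensity of each spot comes from Agilent Feature Extraction 10.7.1.1 per the file headers, and from 9.5.1.1 per the submitters' processing notes. The deposited intensity used is the processed signal, background-subtracted per the file headers and not normalised between arrays. Other columns that the authors deposited, with gene names, positions and flags, were read as given. The authors' value table served as an alternative.

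Control and outlier spots were left out (301 probes), spots of a probe were averaged, and log2 of the signal minus the array's 75th percentile was taken. Genes were read by their brightest probe where 2 or more arrays had it well above background. The linear model of limma 3.58.1 (R 4.3.3; lmFit, then eBayes) had treatment as its contrast and the line as block, and gave K6 minus K5 too. Adjustment was by Benjamini-Hochberg over 19093 genes, with a threshold of 0.05. The fit has 1 residual and 2.97 prior degrees of freedom, so each SE leans on a variance pooled over genes. The code was run on simulated data drawn from the fit's own variance model, with 200 genes changed. That run checks the code and cannot show that the model holds for these arrays. Numbers 5 and 6 of the titles pair samples, since each names 1 kind of cells. Across genes, K6 minus K5 in halofuginone arrays correlated with K6 minus K5 in control arrays at r = 0.50.

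The 10 genes and the lists were chosen with earlier results of these data known. Genes named are the 10 at every probe, list genes past the threshold, 9 fixed genes of the lists (Gpx4, Slc7a11, Slc3a2, Hmox1, Fbxl5, Pcbp1, Chac1, Lpcat3 and Nfe2l2) and the 5 nearest to Fth1. A spot was measurable in the comparison with the median of the other 3 arrays where all 3 were well above background. Precision is limited by how few arrays there are. With the line as block, the residual is the disagreement between the K5 and K6 changes, drawn towards the variance pooled over genes. No line and treatment had a repeat array, so p-values do not measure spread between repeats, and the disagreement may be technical. Of the 21 probes, 20 had an accession with the same symbol in RefSeq's gene table.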

Additional observations from a re-analysis of the deposited data

Results flagged for a closer look

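Genes and probes are given here because their changes ran in opposite directions in the lines. With 1 array per line and treatment the difference was not tested, and 23.3% of all tested genes also had opposite signs. The K6 change minus the K5 change, on the log2 scale, was -3.15 for Fth1, 0.18 for Ftl1, -0.38 for Ireb2 and -0.51 for Aco1. It was 0.29 for Fbxl5, 0.63 for Hmox1 and 0.14 for Gpx4. Of single probes, that of Slc11a2 transcript variant 1 gave -1.64, the dimmer probe of Aco1 gave -1.47 and the dimmer probe of Ftl1 gave 0.18.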

How the results depend on the processing

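The calls depended on the settings of the fit. Without the line as a replicate block limma called 0 genes higher and 0 lower (740 and 970 with it), while 4492 of 19093 had an unadjusted p under 0.05. Of the 9 genes other than Fth1 and of either list it called 0. At that unadjusted p 1 of the 9 was higher and 2 lower, beside 23.5% of all tested genes. Counts were also 0 and 0 without the filter on dim probes, where 15052 of 36918 tested genes had an unadjusted p under 0.05. The same held with scaling on probes detected on all 4 arrays (6389 of 19093 unadjusted). In both settings the counts were 0 among all genes, the 9 genes and both lists. Normexp background correction gave 2605 higher and 2867 lower, a variance trend 2039 and 2161 and pixel medians 1250 and 1630, each over 19093 genes. The filter on all 4 arrays gave 1909 and 2103 over 15896 genes. Leaving out a line leaves no test, and genes changed at least 2-fold then numbered 2689 to 3125 higher and 2851 to 3134 lower.

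Of the 9 genes, 0 were called higher with the mean over probes, and 2 were called lower with normexp, with the filter on all 4 arrays and with the trend. With the mean over probes Hpx, Acsl3 and Slc3a2 lost their calls (adjusted p 0.051, 0.052 and 0.061), and Cp was -3.60. In K5 and K6 alone Cp was -4.02 and -5.90, Tfr2 -2.71 and -4.40 and Ptgs2 3.44 and 4.94. In the iron handling list normexp gave 4 higher and 20 lower, the filter on all 4 arrays 2 and 15, the trend 3 and 15, pixel medians 3 and 11, and leaving out a line 3 to 4 and 15 to 18. In the ferroptosis list these were 10 and 10, 8 and 10, 9 and 10, 9 lower with pixel medians, and 8 to 10 higher with 12 lower. Counts over all tested genes rose in these settings too, for normexp to 2605 higher and 2867 lower from 740 and 970 in the main fit. The larger counts in the lists and among the 9 genes are therefore not a result about those genes. Slc11a2 was called in 8 of 12 settings (adjusted p 0.0013 to 0.14), Tfrc in 3 (0.011 to 0.18), Slc40a1 in 2 (0.0062 to 0.28) and Acsl4 in 1 (0.040 to 0.19).

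In the fits over both lines the sign turned for 3 genes. Ftl1 was 0.0015 and Fbxl5 0.10 with the mean over probes. Aco1 was -0.0511 with quantile normalisation, -0.0503 with the authors' values and -0.0362 with scaling on probes detected on all 4 arrays. In K6 minus K5, Ftl1 was 0.0776 with quantile normalisation and 0.0775 with the authors' values, and Acsl4 0.0380, 0.0340, 0.0373 and 0.0567 with quantile normalisation, normexp, the authors' values and pixel medians. Read by the variant 1 probe, Slc11a2 in K6 was -0.93 in place of 1.59. The low Fth1 value of control K5 came from the same 1 spot in every setting that read it. That it kept its direction and size there is therefore no separate reading. Leaving out spots with any outlier flag removed it. The settings with any outlier flag, with scaling on probes detected on all 4 arrays and with pixel medians for the counts were chosen after seeing the data. The cause of these differences was not tested.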
